A study of Macaca nemestrina with 15 samples.

Results

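ENSMNEG00000021731, ENSMNEG00000037499 and ENSMNEG00000042407 are 3 features of the *Macaca nemestrina* gene annotation that carry an Ensembl identifier and no gene symbol. They are listed by name, as features with an Ensembl identifier only that were lower than before islatravir treatment in at least 4 of 5 animals at each later time point. The count table holds 28865 features, of which 7212 carry an Ensembl identifier only, and all 3 members were found in it. The direction of their changes from the pre-treatment sample was therefore fixed by the choice, and these changes are described here without a test. The study describes ENSMNEG00000021731 and ENSMNEG00000037499 as Ig-like domain-containing proteins. For ENSMNEG00000042407 no protein description was found in the sources used here.

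The data are RNA-seq read counts from peripheral blood mononuclear cells (PBMCs), the lymphocytes and monocytes of blood, of 5 female pig-tailed macaques sampled at 3 time points, 15 libraries in all. Islatravir (ISL), a nucleoside reverse transcriptase translocation inhibitor developed against HIV, was given by mouth at 30 mg/kg each week for 12 weeks. The pre-treatment group was sampled before the first dose and the week 12 group at the end of dosing. By the study's methods, the week 18 group was sampled 6 weeks after the last dose. Every animal served as its own control, no untreated animals were sequenced, and an effect of time alone cannot be told apart from one of ISL. No strain, allele or age is given for the animals. Dates in the library names lie 56 or 57 days after the first sample for week 12 and 84 days for week 18, so the labelled weeks and these dates differ. The legend of the study's design figure also gives a time after treatment that is shorter than 6 weeks.

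An Ig-like domain is a compact fold of beta strands. It builds the chains of antibodies and of T-cell receptors, and it recurs in many surface receptors of leukocytes, the Fc receptor-like proteins among them. Each B cell assembles its antibody chains from a choice of many variable gene segments, so the RNA of a single segment in blood depends on which B cells and plasma cells circulate. Whether either of the described members is such a segment is not stated in the sources used here. Segments of this kind can be near-identical, and a read that matches several of them equally well is not counted by the authors' method, so the counts of Ig-like features carry that uncertainty.

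Between 5610597 and 10379572 counts fell on features per library. Levels are given as CPM, in which each library's counts are scaled to a common total after TMM scaling in edgeR. Of the 12880 features that passed the filter on low counts, 2051 carry an Ensembl identifier only, and all 3 members are among them. Each lineage expected in PBMCs had markers in the table, though not always the whole list. Of the plasmacytoid dendritic cell markers 4 of 6 were there, and of the plasma-cell markers 9 of 10. All 8 T-cell markers and all 7 NK-cell markers were tested, as were 7 of 8 monocyte markers and 10 of 12 B-cell markers, and no marker of any list present in the table was at 0 in all libraries. The summed level of the 12 B-cell markers ranged from 272 to 1092 CPM before treatment, from 163 to 557 at week 12 and from 206 to 465 at week 18. In bulk RNA, fewer cells of a type and less RNA per cell cannot be told apart. Libraries of the shallowest animal, Z15303, held 5610597 counts at week 12 and 5886482 at week 18.

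The selection rule was met by 181 of the 2051 tested features with an Ensembl identifier only, or 8.82%, and by 7.94% of all tested features, so the 3 members are a few of many. In 25 of these 181 (1.22% of the 2051) the level was lower in each of the 5 animals each time, and in the other 156 (7.61%) the weaker time point had 4 of 5. Just outside the rule, 511 features (24.9%) had 3 of 5 at the weaker time point. ENSMNEG00000037499 was lower than before treatment in 5 of 5 animals at week 12 and again at week 18. ENSMNEG00000021731 was lower in 5 of 5 at week 12 and in 4 of 5 at week 18, and ENSMNEG00000042407 in 4 of 5 at both. Among the 181 features, the median log2 fold change was −0.39 at week 12 and −0.43 at week 18, where the median over all 12880 features was 0.00 at both. Counted from the most negative value, ENSMNEG00000037499 lay at position 3 of 181 at week 12 and 18 at week 18, ENSMNEG00000021731 at positions 8 and 20, and ENSMNEG00000042407 at positions 50 and 47.

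ENSMNEG00000021731 was at 5.75 CPM in animal Z13076, 14.1 in Z15408, 15.7 in Z15228, 17.4 in Z15303 and 23.5 in Z15339 before treatment. At week 12 it was at 4.93 CPM in Z13076, 5.31 in Z15408, 7.06 in Z15339, 8.29 in Z15303 and 9.23 in Z15228. The week 18 levels were 6.60 CPM in Z15228, 6.73 in Z15303, 7.31 in Z13076, 8.40 in Z15408 and 10.3 in Z15339. The highest level was 4.09 times the lowest before treatment, 1.87 times at week 12 and 1.56 times at week 18, and the wide range before treatment rested on Z13076. Without that animal the ratios were 1.66, 1.74 and 1.56, so the other 4 animals stood about equally far apart at each time point. Z13076 had the lowest pre-treatment level, and through that library alone the later groups overlapped the pre-treatment group, since each later level lay below the pre-treatment levels of the other 4 animals. The choice had fixed this direction, and how many features separate so with an animal set aside was not counted.

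The mean of ENSMNEG00000021731 was 15.3 ± 6.41 CPM in the pre-treatment group, 6.96 ± 1.86 in the week 12 group and 7.87 ± 1.53 in the week 18 group (SD, n = 5). In edgeR's fit of all libraries the log2 fold change from pre-treatment was −1.14 ± 0.30 at week 12 and −0.95 ± 0.29 at week 18, where the error of a fold change is here and below its standard error. When the animal was a block these were −1.08 ± 0.23 and −0.86 ± 0.23. These levels rest on 38 to 197 counts per library. Within animals, the ratio of week 12 to pre-treatment CPM was 0.30 in Z15339 (95% exact binomial interval 0.223 to 0.400, for counting error only) and 0.858 in Z13076 (0.554 to 1.32). At week 18, Z13076 was the animal that went against the others, with a ratio of 1.27 (0.861 to 1.89), while the other 4 lay between 0.387 and 0.594. The interval of Z13076 held 1 at both time points. Library-name dates were shared by 3 animals (Z15303, Z15339 and Z15408), whose mean log2 change was −1.38 at week 12 and −1.08 at week 18. For Z13076 and Z15228, each with dates of its own, it was −0.48 and −0.44.

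**Figure D1:**
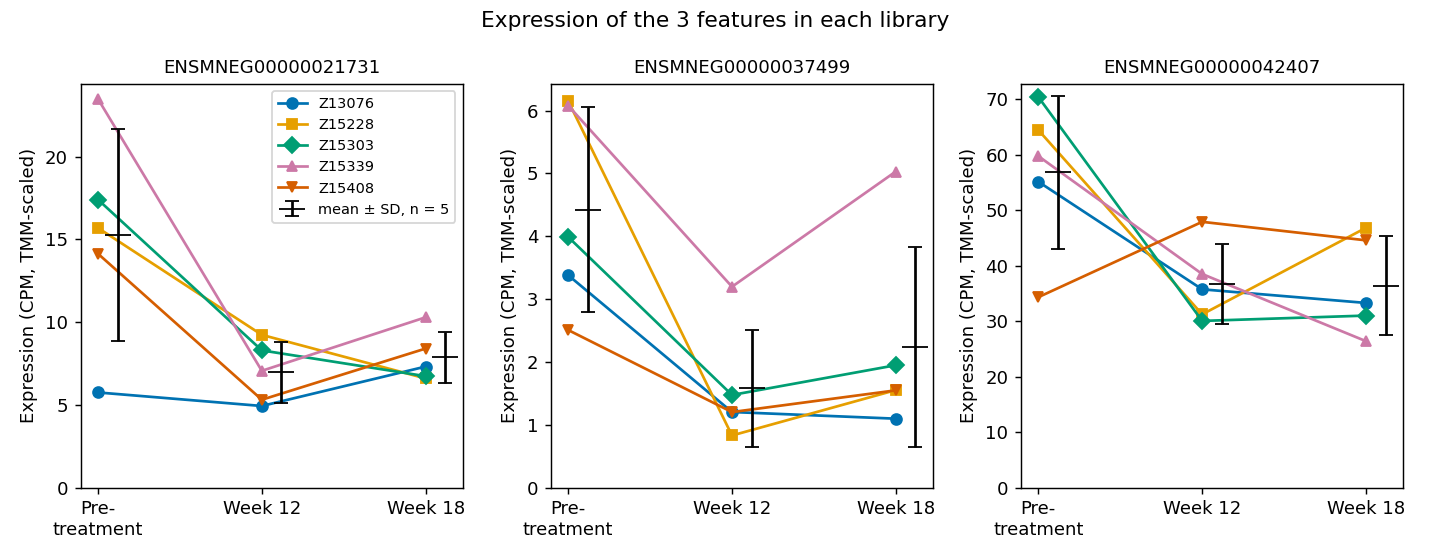
Expression of each feature in CPM (vertical axis, from 0) at the 3 time points, with a line per animal and the mean ± SD of 5 animals in black. ENSMNEG00000021731 spanned 5.75 to 23.5 CPM before treatment, with 4 of 5 animals at 14.1 or above, and 4.93 to 9.23 at week 12, ENSMNEG00000037499 was highest in Z15339 at both later time points, and ENSMNEG00000042407 was above its pre-treatment level in Z15408 alone.

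ENSMNEG00000037499 is also described as an Ig-like domain-containing protein, and it had the fewest counts of the 3, between 8 and 60 per library. Before treatment it was at 2.51 CPM in Z15408, 3.38 in Z13076, 3.99 in Z15303, 6.08 in Z15339 and 6.15 in Z15228. At week 12 the levels were 0.830 CPM in Z15228, 1.20 in Z15408, 1.20 in Z13076, 1.47 in Z15303 and 3.20 in Z15339. At week 18 they were 1.10 CPM in Z13076, 1.55 in Z15408, 1.55 in Z15228, 1.95 in Z15303 and 5.03 in Z15339. Z15339 stood above the other 4 animals at both later time points, and it alone overlapped the pre-treatment group. The other 4 animals were below the lowest pre-treatment level, 2.51 CPM, at week 12 and at week 18. Again the choice had fixed the direction, and the share of all features with such a separation was not counted. Z15228, in contrast, went from the highest level of the 5 to the lowest at week 12.

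The group means of ENSMNEG00000037499 were 4.42 ± 1.63 CPM for pre-treatment, 1.58 ± 0.932 for week 12 and 2.24 ± 1.59 for week 18 (SD, n = 5). Its log2 fold changes from pre-treatment were −1.47 ± 0.46 and −0.97 ± 0.45 in edgeR's fit, and −1.56 ± 0.32 and −1.10 ± 0.31 with the animal as a block. Within Z15228 the ratio of week 12 to pre-treatment CPM was 0.135 (95% exact binomial interval 0.0557 to 0.283), from 60 counts to 8. Within Z15408 it was 0.479, from 22 counts to 12, and its interval of 0.216 to 1.01 just held 1. At week 18 the interval held 1 in Z15339, with a ratio of 0.827 (0.542 to 1.26), and in Z15408, with 0.617 (0.292 to 1.26). In the other animals the interval lay below 1, the direction that the choice of this feature had fixed. The 3 animals with shared dates had a mean log2 change of −1.04 at week 12 and −0.61 at week 18, against −1.96 and −1.64 for Z13076 and Z15228.

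ENSMNEG00000042407, the member with no description, had 163 to 635 counts per library and the smallest counting error. Its pre-treatment levels were 34.3 CPM in Z15408, 55.1 in Z13076, 59.7 in Z15339, 64.4 in Z15228 and 70.4 in Z15303. At week 12 they were 30.0 CPM in Z15303, 31.2 in Z15228, 35.7 in Z13076, 38.5 in Z15339 and 47.9 in Z15408. At week 18 they were 26.4 CPM in Z15339, 31.0 in Z15303, 33.3 in Z13076, 44.6 in Z15408 and 46.8 in Z15228. Z15408 turned the order around, as it had the lowest level before treatment and the highest at week 12. In the other 4 animals each level at week 12 and week 18 lay below each pre-treatment level, the direction fixed by the choice. Separation with an animal set aside was not counted over all features. For no member were the later libraries all below the pre-treatment ones, a pattern that 0.163% of all tested features showed at week 12 and 0.202% at week 18 (21 and 26 features lower in each library than in each pre-treatment library).

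ENSMNEG00000042407 averaged 56.8 ± 13.8 CPM in the pre-treatment libraries, 36.7 ± 7.14 in those of week 12 and 36.4 ± 8.86 in those of week 18 (SD, n = 5). Its log2 fold changes from pre-treatment were −0.63 ± 0.20 and −0.64 ± 0.20. The standard errors were again 0.20 when the animal was a block, while those of the other 2 members were smaller with it. In Z15408 the ratio to the pre-treatment CPM was 1.40 (95% exact binomial interval 1.21 to 1.62) at week 12 and 1.30 (1.12 to 1.51) at week 18. In the other 4 animals the ratios lay between 0.427 and 0.648 at week 12 and between 0.440 and 0.727 at week 18, with each interval below 1. The 2 ratios of Z15408 share a single pre-treatment library, so they are not independent. Leaving Z15408 out moved the log2 fold change to −0.88 at week 12 and to −0.86 at week 18. The 3 animals with shared dates, Z15408 among them, had a mean log2 change of −0.46 at week 12 and −0.66 at week 18, and for Z13076 and Z15228 it was −0.83 and −0.59.

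**Figure D2:**
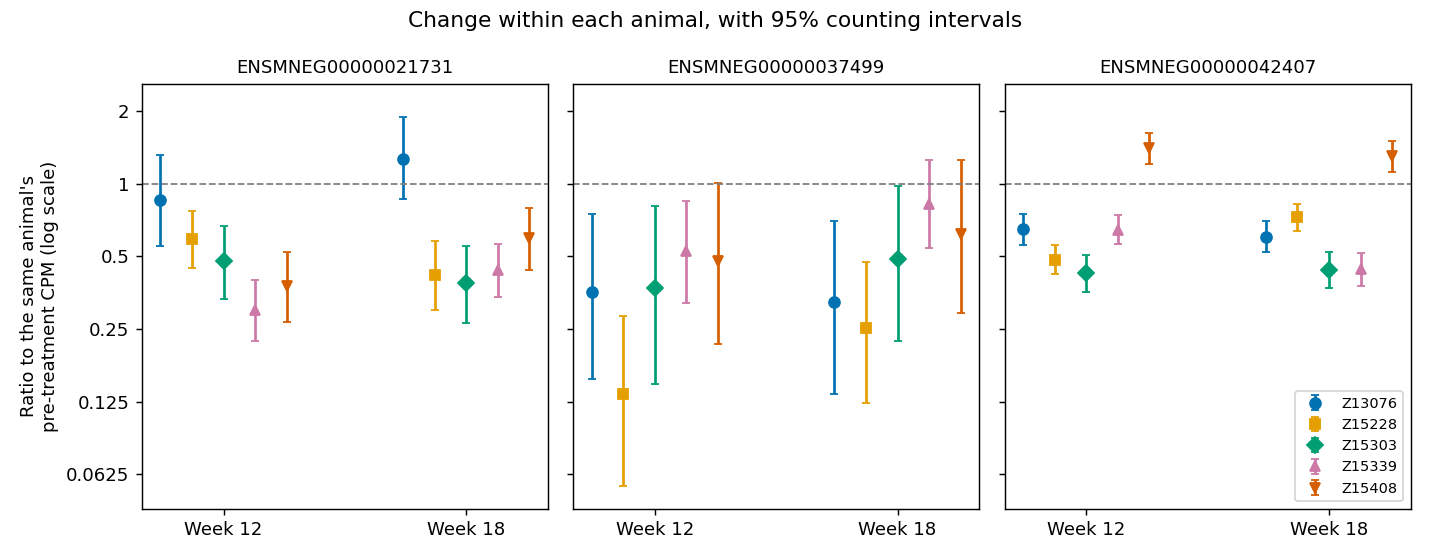
Ratio of the week 12 and week 18 CPM to the pre-treatment CPM of the same animal (vertical axis, log scale), with 95% exact binomial intervals that cover counting error only and a dashed line at a ratio of 1. Z13076 lies nearest to 1 or above it for ENSMNEG00000021731, Z15408 lies above 1 for ENSMNEG00000042407 at both time points, and the widest intervals are those of ENSMNEG00000037499.

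The comparison of week 18 with week 12 asks whether expression changed after ISL was stopped. The rule did not use this difference itself, but it took features that were low at both time points against pre-treatment. The choice thus worked against a full return to the pre-treatment level at week 18. By edgeR's quasi-likelihood test no member differed at an adjusted p of 0.05, nor did any of the 12880 features (0% called), although 65 of them (0.505%) had an unadjusted p under 0.05. When the animal was a block, 279 (2.17%) had an unadjusted p under 0.05 in edgeR, and again none was called. DESeq2 called 0 features as well, and 1 with the animal as a block, which was none of the members. For ENSMNEG00000021731 the log2 fold change was 0.18 ± 0.30 (95% interval −0.45 to 0.81, edgeR adjusted p = 1), with 3 of 5 animals higher at week 18. For ENSMNEG00000037499 it was 0.50 ± 0.47 (interval −0.49 to 1.49, edgeR adjusted p = 1), with 4 of 5 animals higher. For ENSMNEG00000042407 it was −0.01 ± 0.20 (interval −0.44 to 0.41, edgeR adjusted p = 1), with 3 of 5 animals lower. The mean within-animal difference of ENSMNEG00000037499 was 0.38 ± 0.33 (SD, n = 5), more than its SD but not called by the test with the animal as a block either (edgeR adjusted p = 1). The interval of this feature in the fit with time point alone held no difference. Its upper end was 1.49. The change from pre-treatment to week 12 in the same fit, −1.47 ± 0.46, has its own error and shares the week 12 libraries. That fit leaves out the pairing of libraries by animal. Blocking by animal gave 0.46 ± 0.34 between week 18 and week 12, beside −1.56 ± 0.32 from pre-treatment to week 12. Whether the blocked fit allows a full return to the pre-treatment level was not tested. Ordered by mean level, each member was highest before treatment, which the choice had largely fixed. The order of the 2 later time points was not resolved by the test for any of the 3.

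Single animals did move between these time points by more than counting error. In Z15228, ENSMNEG00000042407 was at 1.5 times its week 12 level at week 18 (95% exact binomial interval 1.28 to 1.75), and in Z15339 at 0.686 times (0.579 to 0.811). For ENSMNEG00000021731 the ratio was 1.58 (1.10 to 2.29) in Z15408 and 1.46 (1.05 to 2.04) in Z15339. For ENSMNEG00000037499 the interval held 1 in 5 of 5 animals. No member went the same way in all 5 animals after dosing ended.

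How far a level belonged to the animal was tested in a fit with the time point and the animal as terms, which the rule did not use either. Of all tested features, 3982 (30.9%) differed between animals at an adjusted p of 0.05, and of the 3 members 1 did, a share near that background (34.1% among features with an Ensembl identifier only). ENSMNEG00000037499 differed between animals, with the highest animal at 2.81 times the lowest (log2 range 1.49, edgeR adjusted p = 0.0276). That call rested on Z15339. Without it the log2 range was 0.43 (edgeR adjusted p = 0.719), without Z15408 the adjusted p was 0.0525, and limma-voom gave 0.0548 with all animals. For ENSMNEG00000021731 the log2 range was 1.01, or 2.02 times (edgeR adjusted p = 0.107), and limma-voom gave an adjusted p of 0.0476. Without Z13076 its log2 range was 0.49 (edgeR adjusted p = 0.358).

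In ENSMNEG00000042407 the animals were nearly level over their 3 libraries each, from 41.4 CPM in Z13076 to 47.5 in Z15228. The log2 range was 0.21, or 1.16 times (edgeR adjusted p = 0.924), against a median of 0.60 over all tested features, and 98.1% of them had a larger F statistic for the animal. Its libraries differed mostly within animals, as described for Z15408 and Z15228. The 14 other Ensembl-named features on the study's lists all differed between animals, by 3.38 to 19.9 times (median 9.18). This list was picked by the study on these samples for another measure, the change with time. Of the 10 B-cell markers tested, 8 differed between animals, and the median over all 10 was 2.98 times.

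**Figure D3:**
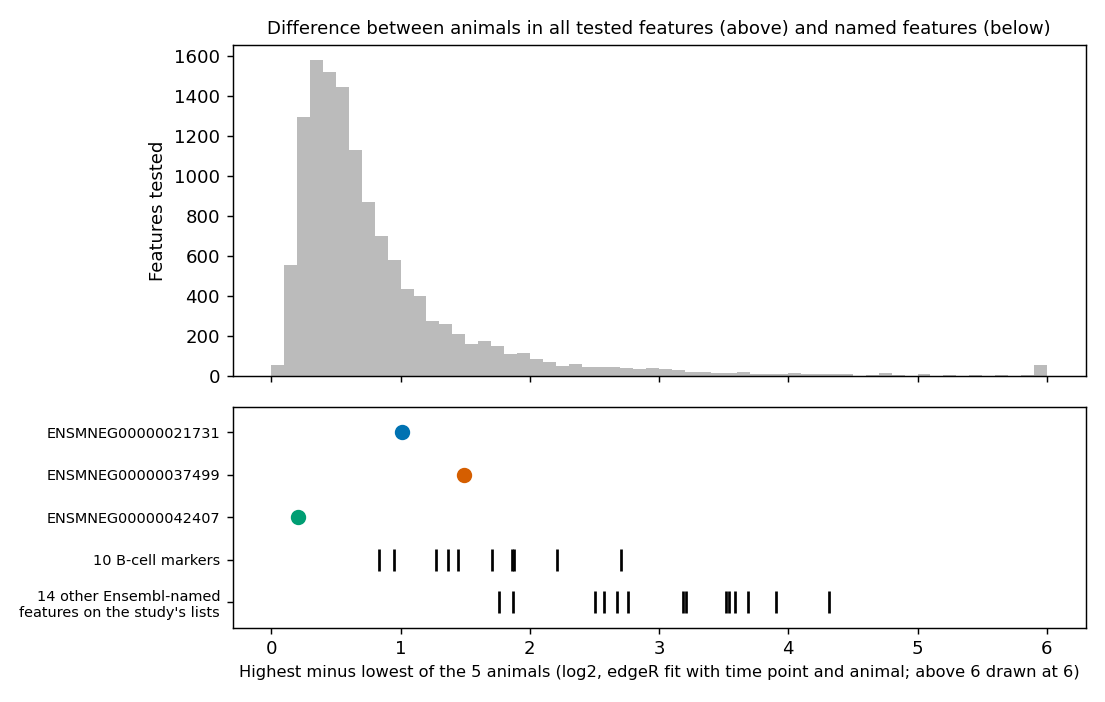
Log2 difference between the highest and the lowest of 5 animals, from the fit with time point and animal, as a histogram over 12880 tested features (above, vertical axis the number of features) and for named features (below, each mark 1 feature). ENSMNEG00000042407 lies at 0.21, left of the median of 0.60, while the 14 other Ensembl-named features on the study's lists lie between 1.76 and 4.32; values above 6 are drawn at 6.

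The other genes of antibodies and the B-cell receptor give the setting of the Ig-like members. A list of 37 such genes was drawn up, of which 31 were tested. All 31 had a negative log2 fold change at week 12 and at week 18, with medians of −0.80 and −0.78 beside 0.00 over all features. Without a block, edgeR called none of them at an adjusted p of 0.05 (0% of all features called). At an unadjusted p under 0.05, 12 were lower at week 12 and 14 at week 18, as were 1.09% and 1.08% of all features. With the animal as a block, edgeR called 1 of the 31 at each time point (0.00776% of all features called), *IGKV1OR2.108*, which is named as an immunoglobulin kappa variable segment. DESeq2 called 0 of the 31 without the block (0.00776% of all features called at week 12 and 0% at week 18). With the block it called 13 at each time point, all lower (0.21% and 0.334% of all features called). *CD79A*, which encodes a signaling chain of the B-cell receptor, had log2 fold changes of −0.79 ± 0.43 and −0.78 ± 0.43. *MS4A1*, which encodes CD20, had −1.13 ± 0.58 and −1.17 ± 0.58. The log2 fold changes of both Ig-like members lay within the range of this list at each time point, from −1.45 to −0.07 at week 12 and from −2.38 to 0.00 at week 18, except that of ENSMNEG00000037499 at week 12, which at −1.47 lay just below it.

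Of the other 14 Ensembl-named features on the study's lists, each had a negative log2 fold change at both time points, with medians of −0.71 and −0.94. The study picked them on these samples for that direction. ENSMNEG00000005794 and ENSMNEG00000017115, which the study also describes as Ig-like domain-containing proteins, had −1.09 ± 0.71 and −0.72 ± 0.46 at week 12. At week 18 the values were −0.82 ± 0.71 and −0.84 ± 0.47. Their levels differed between animals by 5.97 and 3.66 times, where those of ENSMNEG00000037499 and ENSMNEG00000021731 differed by 2.81 and 2.02.

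The members were also set beside markers of B cells and of plasma cells, the antibody-secreting cells. Averaged over its markers, the log2 CPM of the B-cell list differed from pre-treatment by −0.93 ± 0.25 at week 12 and by −0.87 ± 0.28 at week 18 (SD of the within-animal changes, n = 5), lower in 5 of 5 animals. The plasma-cell list differed by −0.26 ± 0.34 and −0.39 ± 0.31, lower in 4 of 5 animals and in 5 of 5. The change of ENSMNEG00000021731 minus that of the B-cell list was −0.09 ± 0.40 at week 12 and 0.04 ± 0.49 at week 18, within its spread of 0 at both. For ENSMNEG00000037499 this difference was −0.48 ± 0.80 and −0.16 ± 0.65, and against the plasma-cell list it was −1.14 ± 0.51 and −0.64 ± 0.50. For ENSMNEG00000042407 the difference from the B-cell list was 0.32 ± 0.74 and 0.24 ± 0.69. These differences contain the members' changes from pre-treatment, which the rule fixed to be mostly negative, and their sign is no test. The part of B-cell number in the members' changes was not tested.

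To compare the members with cell markers apart from their shared change with time, the mean of each time point was subtracted from the log2 CPM, and Pearson's r was taken over the 15 libraries of 5 animals. These libraries are not independent, so r is given as a description. ENSMNEG00000021731 had an r of 0.66 with the B-cell list, between 0.41 and 0.88 when each animal was left out, and 2.24% of all tested features had a higher one. It had an r of 0.46 with the plasma-cell list (0.185 without Z15339). With the animal means also subtracted, r was 0.75 with the B-cell list and 0.08 with the plasma-cell list. ENSMNEG00000037499 had 0.78 with the plasma-cell list (0.939% of features higher) and 0.32 with the B-cell list. The first of these values rested on Z15339, without which it was 0.18. With the platelet list r was 0.53 (0.42 to 0.705 when each animal was left out) and with the plasmacytoid dendritic cell list 0.47 (0.20 without Z15339). After the animal means were subtracted as well, r was 0.43 with the plasma-cell list and −0.04 with the B-cell list. By that measure it was 0.64 with platelets, 0.60 with NK cells and 0.35 with plasmacytoid dendritic cells. *MZB1*, a chaperone of antibody assembly in the endoplasmic reticulum, gave ENSMNEG00000037499 an r of 0.83 (0.40 without Z15339), and *IGKV1OR2.108* gave it 0.68 (0.25 without Z15339). *JCHAIN* and *TNFRSF17*, also on the plasma-cell list, gave it 0.67 (−0.009 without Z15339) and 0.62 (0.21 without Z15339). Subtracting the animal means as well left 0.72 for *MZB1*, 0.72 for *IGKV1OR2.108*, 0.35 for *JCHAIN* and −0.02 for *TNFRSF17*.

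ENSMNEG00000042407 had an r between −0.02 and 0.15 with all 9 marker lists. It was 0.07 with B cells, 0.04 with plasma cells, 0.15 with NK cells and 0.14 with monocytes, so no list stood out with all animals in. With the animal means subtracted as well, the value for NK cells was 0.52. With Z15408 left out, the value for plasmacytoid dendritic cells was −0.62. The members were no closer to each other. ENSMNEG00000021731 and ENSMNEG00000037499 had an r of 0.34 (0.10 without Z15339), and ENSMNEG00000042407 had −0.12 and 0.03 with them. Once the animal means were subtracted as well, these values were −0.38, −0.18 and 0.24 in the same order. Both Ig-like members ran opposite to the monocyte list, with −0.53 for ENSMNEG00000021731 and −0.64 for ENSMNEG00000037499, and without Z15339 these were −0.23 and −0.18. With the animal means subtracted as well they were −0.31 and 0.08.

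**Figure D4:**
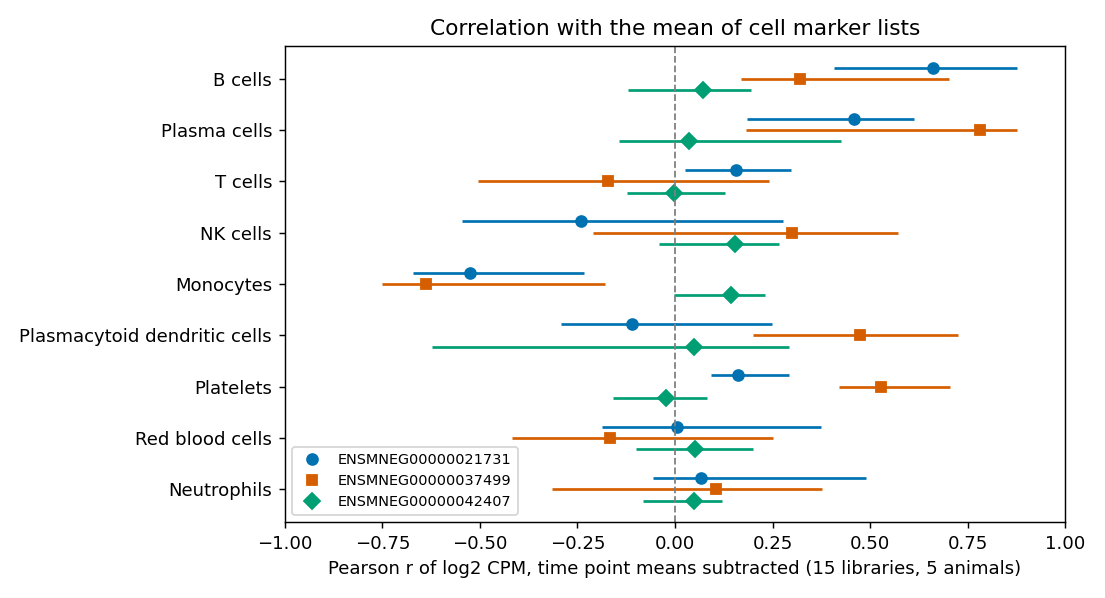
Pearson r of each feature with the mean log2 CPM of 9 lists of cell markers after subtraction of the time point means (horizontal axis), over 15 libraries. Points use all 5 animals and lines span the values with each animal left out. ENSMNEG00000021731 lies at 0.66 for B cells, ENSMNEG00000037499 at 0.78 for plasma cells with a line reaching down to 0.18, and ENSMNEG00000042407 near 0 for each list with all animals in.

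The named genes whose pattern was most like that of a member were found with the same measure over all tested features. They are the highest of 12880 values of r, so they were bound to be high, and they are given as a description only. For ENSMNEG00000021731 they were *ZNF442*, a zinc finger gene (r = 0.90), *ALPL*, an alkaline phosphatase (0.86), *FCMR*, the Fc receptor for IgM (0.845), *FCRL1*, a member of the Fc receptor-like family on B cells (0.84), and *MTSS1*, an actin regulator (0.83). Without Z13076 these values were between 0.325 and 0.641. *FCRL1* was the one among them whose level was also lower in 5 of 5 animals at week 12, with a log2 fold change of −1.08. The most alike Ensembl-named features were ENSMNEG00000027411 (0.87), ENSMNEG00000027347 (0.84) and ENSMNEG00000030116 (0.81).

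For ENSMNEG00000037499 the 5 named genes were *GNLY*, the cytotoxic granule protein granulysin (r = 0.90), *NPL*, a sialic acid lyase (0.88), *MAPK12*, a p38 kinase (0.87), *PREP*, a prolyl endopeptidase (0.85), and *RSPH9*, a radial spoke protein of cilia (0.85). These values were lowest without Z15339, at 0.73, 0.67, 0.43, 0.48 and 0.64 in the same order. With all animals and the animal means subtracted as well, they were 0.66, 0.575, 0.43, 0.34 and 0.89. *PREP* was lower than before treatment in 5 of 5 animals both times, by a log2 fold change of −0.14 at week 12. The other 4 were lower in 1 to 3 animals at week 12, with log2 fold changes between −0.19 and 0.28. The most alike Ensembl-named features were ENSMNEG00000028934 (0.89), ENSMNEG00000003974 (0.87) and ENSMNEG00000041203 (0.85).

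For ENSMNEG00000042407 the most alike named genes held no member of the marker lists. They were *MPDU1*, which acts in the use of dolichol-linked mannose (r = 0.87), *GET4*, which acts in the insertion of tail-anchored proteins (0.84), *COMMD5* (0.81), *HSDL2*, a peroxisomal protein (0.78), and *ADRM1*, a ubiquitin receptor of the proteasome (0.78). With the animal means subtracted as well, r was 0.88, 0.945, 0.84, 0.89 and 0.82, and without Z15408 it lay between 0.41 and 0.69. Their own log2 fold changes lay between −0.11 and 0.19 at week 12. Among Ensembl-named features the most alike were ENSMNEG00000028763 (0.805), ENSMNEG00000045291 (0.79) and ENSMNEG00000034046 (0.78).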

How the data were processed

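The authors amplified cDNA from total RNA of PBMCs with SMART-Seq v4, made Nextera XT libraries, aligned the reads with STAR 2.7.9a to the Ensembl annotation of *M. nemestrina*, and counted them with STAR's GeneCounts option, which counts uniquely mapped reads. The deposited values are raw counts per feature, without normalization. The strand setting is not given in the sources used here, so reads from overlapping antisense genes cannot be told apart.

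Libraries were assigned to time points and animals by GEO's labels. The main test was edgeR 4.0.16 (R 4.3.3), quasi-likelihood, with TMM and filterByExpr (minimum count 10), on 15 libraries, with time point alone in the model and Benjamini-Hochberg adjustment over 12880 features. Differences between animals were tested with the animal added. Standard errors were derived from each fold change and its F statistic. The log2 CPM used a prior count of 2. Same-animal libraries deviated together (mean correlation 0.551, lowest 0.351, over 15 pairs), so the animal also served as a block. Alternatives were DESeq2 1.42.0, limma-voom (limma 3.58.1), other scalings, no count filter, a prior count of 0.5, and leaving out each animal. Scripts were tested on simulated data.

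The members, gene lists and tests were chosen with earlier results of these data known. Genes named are the members, the study's other Ensembl-named features, reference genes of cell types and, for each member, the 5 symbols and 3 Ensembl-named features of highest r. The marker lists cover B cells, plasma cells, T cells, NK cells, monocytes, plasmacytoid dendritic cells, platelets, red blood cells and neutrophils. The RefSeq table used pairs none of the 7212 Ensembl identifiers with a gene, so no position or sequence is given and levels are not compared between features. The exact binomial intervals cover counting error only, as reads carried no molecular identifiers. The intervals of edgeR's fold changes come from the standard errors of its fit.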

Additional observations from a re-analysis of the deposited data

Results flagged for a closer look

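Each member's 5 values per time point and its 5 within-animal changes were screened for a value far from the other 4, which chance alone gives in about 1 of 20 groups. Of 18 groups screened, 3 held such a value, all of ENSMNEG00000037499. At week 12 its level was 3.20 CPM in Z15339, against 0.829 to 1.47 in the other 4 animals. At week 18 it was 5.03 CPM in Z15339, against 1.10 to 1.95 in the others. The change from pre-treatment to week 12 was −2.58 on the log2 scale in Z15228, against −1.33 to −0.88 in the others, and rests on 60 and 8 counts. The first 2 come from the same animal and are not independent.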

How the results depend on the processing

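The selection rule fixed the direction of the members at week 12 and week 18, so its repeat under other settings is no sign of stability. Leaving out each animal gave log2 fold changes of −1.25 to −0.93 and −1.14 to −0.84 for ENSMNEG00000021731, −1.77 to −1.15 and −1.39 to −0.71 for ENSMNEG00000037499, and −0.88 to −0.47 and −0.86 to −0.49 for ENSMNEG00000042407, at week 12 and week 18 in this order. Between week 18 and week 12 no alternative called a member (adjusted p = 1 from each tool), and the sign for ENSMNEG00000042407 varied, from −0.17 to 0.10 with animals left out. The replicate block by animal in edgeR moved the number of features called at week 12 and at week 18 from 0 to 1 each, and called no member between week 18 and week 12 (207 and 218 features had an unadjusted p under 0.05 without the block). DESeq2 called 1 feature at week 12 without the block. DESeq2 with the replicate block by animal, an alternative chosen after seeing the data, called 27 at week 12, 43 at week 18 and 1 between them.

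For the difference between animals, ENSMNEG00000021731 passed with features of at least 1 count kept (log2 range 1.01, edgeR adjusted p = 0.0106) and in limma-voom (1.19, adjusted p = 0.0476), and with animals left out its log2 range was 0.49 to 1.03 (adjusted p 0.0768 to 0.358, edgeR). ENSMNEG00000037499 did not pass in limma-voom (1.40, adjusted p = 0.0548), and with animals left out its log2 range was 0.43 to 1.49. The number of features that differed between animals was 2284 to 4291 with animals left out, lowest without Z15303. The selection rule was met by 25 features at 5 of 5 animals, where 1 of the 3 members met it, by 200 on library totals, by 241 on raw counts and by 256 with features of at least 1 count kept, beside 181 as reported. The causes were not tested. With 8 to 60 counts per library, counting error limits ENSMNEG00000037499 most.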
